A study of Mus musculus with 12 samples.

Results

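The genes described here are 10 cytosolic heat shock chaperones and their helpers, taken by symbol from a set list: Hspa1a, Hspa1b, Hspa8 and Hsph1 of the HSP70 and HSP110 families, Hsp90aa1 and Hsp90ab1 of the HSP90 family, the J-domain proteins Dnaja1 and Dnajb1, the exchange factor Bag3 and the small heat shock protein Hspb1. Hspa1a and Hspa1b are near-identical copies and are also given as a sum. The 10 genes are among 35385 gene symbols in the deposited tables, and each of them was among the 12009 genes that reached a level of 1 in 3 or more libraries and were tested. Levels are in TPM, a transcript's share of its library per length of transcript. The listed values summed to 772637 to 797758 TPM in a library, less than a full set of TPM adds up to. What the missing part holds is not known. Bag3 reached 1 TPM in 4 of the 12 libraries, Hspb1 in 11 and the other 8 genes in all 12.

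Poly(A) RNA was sequenced from mouse oligodendrocyte progenitor cells (OPCs), which give rise to the myelinating cells of the brain and spinal cord and were made here from pluripotent stem cells. All cells were in medium that permits differentiation, and each group has 3 libraries exposed for 4 h. The vehicle group received dimethyl sulfoxide. The others received a quaternary ammonium salt: cetylpyridinium chloride (CPC), with its charge on an aromatic pyridinium ring, C12-C14-alkyl(ethylbenzyl)dimethylammonium chloride (AEBDAC), with an ethylbenzyl group, or methyltrioctylammonium chloride (MTOAC), with octyl chains and no ring. Each was given at its own IC75, the concentration that inhibits by 75%, so the concentrations differed between compounds, and the values are not given in the labels. The labels do not say that the 3 libraries of a group came from separate cultures, so p-values rest on how far the libraries of a group differ, which may be technical.

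HSP70 proteins bind unfolded stretches of other proteins in cycles driven by ATP. J-domain proteins bring clients and start the ATP hydrolysis, exchange factors such as HSP110 and Bag3 release the nucleotide, HSP90 takes on clients at a later stage of folding, and small heat shock proteins hold unfolded proteins without ATP. In most cells, Hspa8 and Hsp90ab1 are made constitutively, while Hspa1a, Hspa1b, Dnajb1, Bag3 and Hspb1 are known targets of heat shock factor 1, which binds repeats of the block GAA in alternating orientation.

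The promoters of Hspa1a, Hspa1b and Hspb1 are shown because these are the 3 genes whose MTOAC libraries all lay above all vehicle libraries. Each window is the 250 bases upstream of the RefSeq start site on GRCm38.p6, 5′ to 3′ on the strand of the gene, and capitals mark GAANNTTC, an inverted pair of GAA blocks. The windows are chr17:34972157-34972406 on the minus strand for Hspa1a, chr17:34959239-34959488 on the minus strand for Hspa1b, and chr5:135887669-135887918 on the plus strand for Hspb1.
Hspa1a: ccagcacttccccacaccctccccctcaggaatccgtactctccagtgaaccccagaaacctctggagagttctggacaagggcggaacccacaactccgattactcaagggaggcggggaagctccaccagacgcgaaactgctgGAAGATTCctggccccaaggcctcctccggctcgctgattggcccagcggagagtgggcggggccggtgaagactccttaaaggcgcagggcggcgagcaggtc
Hspa1b: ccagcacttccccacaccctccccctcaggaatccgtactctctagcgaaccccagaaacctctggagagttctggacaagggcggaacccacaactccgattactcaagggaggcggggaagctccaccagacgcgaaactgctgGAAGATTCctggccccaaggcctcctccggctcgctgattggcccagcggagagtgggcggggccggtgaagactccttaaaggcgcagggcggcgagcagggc
Hspb1: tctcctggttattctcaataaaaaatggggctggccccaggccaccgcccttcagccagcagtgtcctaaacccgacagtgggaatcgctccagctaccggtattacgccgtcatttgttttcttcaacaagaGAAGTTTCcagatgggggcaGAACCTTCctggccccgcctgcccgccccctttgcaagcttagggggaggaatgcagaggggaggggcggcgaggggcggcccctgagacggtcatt
The Hspa1a and Hspa1b windows differed at 3 positions, C44T, T47C and T249G, counted from 1 at the 5′ end with the base of Hspa1a given before the position. Both held the match GAAGATTC, which began 104 bases upstream of the start site. Hspb1 held GAAGTTTC and GAACCTTC, which began 117 and 97 bases upstream and did not overlap.

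RefSeq promoters were at hand for 7 of the 10 genes, not for Hspa8, Hsp90aa1 and Hsp90ab1. The motifs GAANNTTC and TTCNNGAA read the same on both strands. At least 1 of them was found in 6 of the 11 windows of these 7 genes, against 12.8% of 32851 RefSeq promoter windows of this length, and for 5 of the 7 genes, against 14.5% of 27025 genes. The windows of Hspa1a and Hspa1b are near copies, and several start sites of 1 gene can share bases. Besides the genes above, Dnaja1 held GAAAATTC at 124 bases upstream of 1 of its 3 start sites, and Hsph1 held TTCTCGAA at 33 bases upstream of 1 of its 2 sites and, as the sites lie close together, at 54 bases upstream of the other. Dnajb1 and Bag3 held neither in these windows. Extended by a further GAA or TTC block at the same spacing, the motif was found in none of the members and in 0.466% of all windows. A match describes letters and is no evidence of binding.

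The labelled cell type was checked against marker genes. The 7 OPC markers, among them Olig1, Olig2 and Pdgfra, were all above the filter and summed to 1597 to 2013 TPM in vehicle, 1276 to 1453 with CPC, 1126 to 1457 with AEBDAC and 866 to 1128 with MTOAC. The 6 neuron markers summed to 424 to 470 TPM in vehicle, 324 to 389 with CPC, 307 to 345 with AEBDAC and 258 to 341 with MTOAC. Most of this came from Map2 (233.5 to 431 TPM). Tubb3 lay at 19.1 to 32.6 TPM and Rbfox3 at 3.48 to 7.95, while Snap25, Syt1 and Stmn2 stayed at or below 2.86. The sums of the 6 markers of each other cell type lay between 23.9 and 81.0 for astrocytes, 33.3 and 92.0 for mesenchymal and endothelial cells, 4.18 and 13.8 for pluripotent cells and 0 and 0.267 for microglia. Acta2 (32.9 to 90.4 TPM) gave most of the mesenchymal and endothelial sum. Cx3cr1 and C1qa of microglia and Zfp42 of pluripotent cells were listed at 0 in all 12 libraries. Among the other pluripotent markers, Esrrb lay at 2.89 to 5.95 TPM and Pou5f1 at 0 to 9.64, while Nanog, Dppa5a and Tdgf1 stayed at or below 0.92. In bulk RNA, fewer cells of a type and less RNA per cell cannot be told apart, and the part of these marker differences in the results below was not tested. The libraries listed 15431 to 16210 symbols above 0, their depth is unknown from TPM, and vehicle library 1 stood apart, with mt-Nd3 at 0 and a mitochondrial sum of 86422 TPM against 147539 to 183001 in the other 11.

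Among the 10 genes, the inducible HSP70 pair rose. Both copies rose with MTOAC, Hspa1a rose with AEBDAC, and Dnaja1 fell with both compounds. In a fit that pairs libraries by their number, Dnaja1 also fell with CPC (adjusted p = 0.0454, limma). That fit was the only 1 of 16 other settings to call it. The other 7 genes passed no test against vehicle in the fit without pairing. A moderated F test in limma over the 4 groups called 3 of the 10 members, against 0.583% of all tested genes: Hspa1a (adjusted p = 0.0199), Hspa1b (adjusted p = 0.0240) and Dnaja1 (adjusted p = 0.0399). With 1 library left out at a time, this count lay between 0 and 2. It was 0 without vehicle library 2 or 3 and without MTOAC library 1 or 2, and 1 without vehicle library 1, CPC library 3, AEBDAC library 2 or 3 or MTOAC library 3. The near-identical copies Hspa1a and Hspa1b are separate members in these counts.

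**Figure D1:**
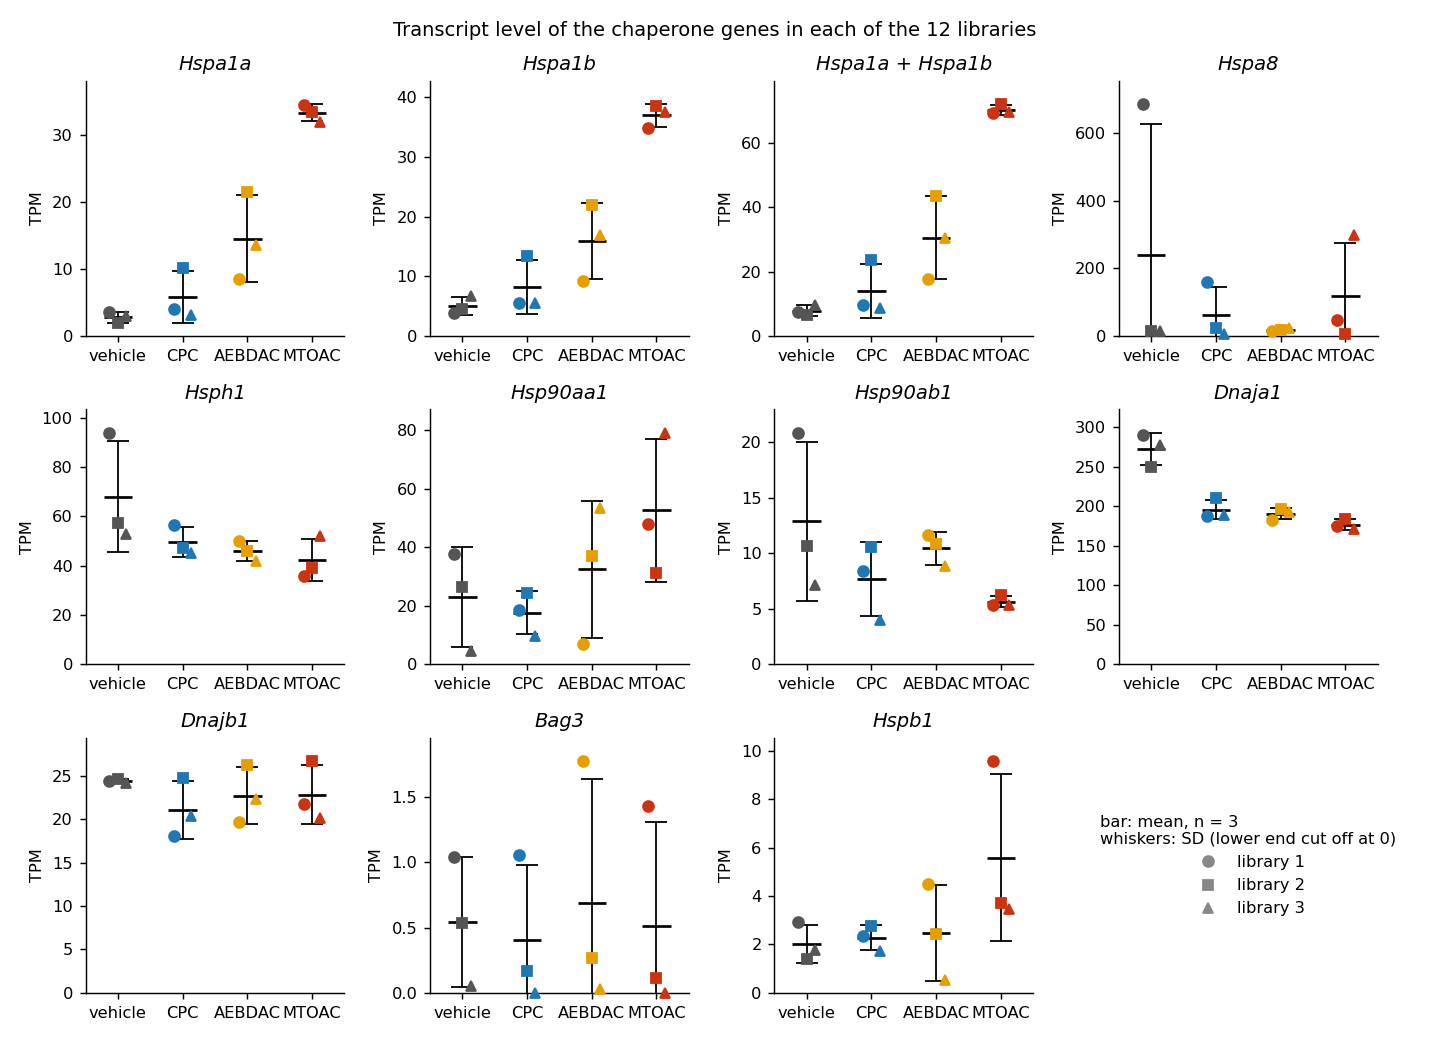
Level in TPM (linear axes from 0, a different scale in each panel) of the 10 genes and of Hspa1a plus Hspa1b in each of the 12 libraries, with library numbers as symbols, the group mean as a bar and the SD (n = 3) as whiskers cut off at 0. The summed pair lay between 69.4 and 72.0 TPM with MTOAC, above the other 9 libraries, while Hspa8 spread from 4.92 to 686 TPM with overlapping groups.

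Hspa1a and Hspa1b encode the HSP70 proteins that cells make on proteotoxic stress. They lie beside each other on chromosome 17 at 34969190 to 34972156 and 34956436 to 34959238, both on the minus strand (GENCODE M21 on GRCm38), and Hspa1a overlaps Gm20481, a protein-coding model on the opposite strand. Their coding sequences of 1923 and 1926 bases aligned with 8 mismatches and 3 gap bases, an identity of 99.6%. Of the 31-base words in the transcripts, 70.1% of Hspa1a and 68.1% of Hspa1b also occur in other genes. Sharing within the pair was 88.4% of the words in the coding part of Hspa1a, 71.1% in its 5′ UTR and 0% in its 3′ UTR. The division of reads between the copies is therefore uncertain, and the sum is the safer measure. Hspa1a made up 29.0 to 49.7% of the sum across the 12 libraries, with the 2 lowest shares, 29.0 and 30.1%, in vehicle libraries 2 and 3.

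Hspa1a stood at 3.52, 1.86 and 2.92 TPM in vehicle libraries 1, 2 and 3, and at 3.98, 10.2 and 3.14 with CPC. It stood at 8.55, 21.5 and 13.6 TPM in AEBDAC libraries 1, 2 and 3, and at 34.5, 33.5 and 32.0 with MTOAC. Every AEBDAC and MTOAC library lay above every vehicle library, and CPC overlapped vehicle through its library 3. On the log2(TPM + 1) scale the difference from vehicle was 0.73 ± 0.38 (SE) with CPC (adjusted p = 0.424, limma), 1.98 ± 0.38 with AEBDAC (adjusted p = 0.0396) and 3.21 ± 0.38 with MTOAC (adjusted p = 0.00376). Hspa1a thus rose with AEBDAC and with MTOAC.

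Hspa1b stood at 3.93, 4.56 and 6.78 TPM with vehicle and 5.58, 13.4 and 5.53 with CPC. With AEBDAC it stood at 9.14, 21.9 and 16.9 TPM, and with MTOAC at 34.9, 38.5 and 37.5. The order of the groups was that of Hspa1a, and the AEBDAC libraries again lay above all vehicle libraries. The difference was 0.51 ± 0.35 log2 with CPC (adjusted p = 0.544, limma), 1.43 ± 0.35 with AEBDAC (adjusted p = 0.0709) and 2.67 ± 0.35 with MTOAC (adjusted p = 0.00569), so that Hspa1b rose with MTOAC and did not pass with AEBDAC.

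The summed pair had means of 7.86 ± 1.68 TPM with vehicle, 14.0 ± 8.39 with CPC, 30.5 ± 12.8 with AEBDAC and 70.3 ± 1.49 with MTOAC (SD, n = 3 each). The libraries of vehicle (6.42 to 9.70) and CPC (8.68 to 23.6) overlapped, as did those of CPC and AEBDAC (17.7 to 43.4), while AEBDAC and MTOAC (69.4 to 72.0) did not. Against vehicle the sum rose by 3.02 ± 0.36 log2 with MTOAC (95% interval 2.23 to 3.82, adjusted p = 0.00377, limma) and by 1.76 ± 0.36 with AEBDAC (0.96 to 2.55, adjusted p = 0.0452). With CPC the difference was 0.64 ± 0.36 (-0.16 to 1.43, adjusted p = 0.465). The median of all tested genes lay at -0.17, -0.16 and -0.22 log2 with CPC, AEBDAC and MTOAC, and relative to it the sum stood at 0.80, 1.92 and 3.24. The MTOAC libraries were the closest together of the 4 groups for the sum, with a coefficient of variation of 2.13%, against 60.1% with CPC and 42.1% with AEBDAC.

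The rise with MTOAC was called in each of the 16 other settings run for Hspa1a, Hspa1b and their sum, and for the sum the change lay between 2.90 and 3.25 log2. Without vehicle library 1 it was 3.0 (adjusted p = 0.0150, limma). The AEBDAC call was less firm. Hspa1a and the sum kept it in 8 of 16 settings each, and of the 6 fits without 1 library, in 1, the fit without AEBDAC library 1. Without AEBDAC library 2, the highest, the sum stood at 1.47 log2 (adjusted p = 0.203, limma), and without vehicle library 1 at 1.73 (adjusted p = 0.123).

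Hspa8 encodes HSC70, the constitutive HSP70, and lies on the plus strand of chromosome 9 at 40800984 to 40810087. It stood at 686, 13.5 and 16.2 TPM with vehicle and at 159, 24.1 and 6.41 with CPC. With AEBDAC it stood at 15.7, 17.0 and 24.6 TPM, and with MTOAC at 46.9, 4.92 and 299. Libraries of 1 group differed by up to 60.7-fold, and the highest values, in vehicle library 1, MTOAC library 3 and CPC library 1, came from 3 different groups. The differences of -0.84, -1.49 and -0.34 log2 from vehicle had standard errors of 1.72 (adjusted p = 0.869, 0.681 and 0.931, limma). Without vehicle library 1 they were 0.97, 0.32 and 1.48, none of them called. The residual SD of 2.40 log2 exceeded that of 99.8% of tested genes, whose median was 0.30. Other genes hold 44.8% of the 31-base words of the Hspa8 transcripts, and annotated pseudogenes hold 40.3%. What part this has in the spread was not tested.

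Hsph1, an HSP110 that serves as an exchange factor for HSP70, shares no 31-base word with another gene. It stood at 94.0, 57.4 and 52.9 TPM with vehicle, 56.4, 47.2 and 45.0 with CPC, 50.1, 46.1 and 41.8 with AEBDAC, and 36.0, 39.3 and 51.9 with MTOAC. All AEBDAC and MTOAC libraries lay below all vehicle libraries, though the nearest were 51.9 and 52.9 TPM. The differences were -0.41 ± 0.21, -0.51 ± 0.21 and -0.64 ± 0.21 log2 and did not pass (adjusted p = 0.419, 0.216 and 0.0891, limma).

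The HSP90 genes were Hsp90aa1, the more inducible form, and Hsp90ab1, the constitutive one. Hsp90aa1 stood at 37.8, 26.5 and 4.47 TPM with vehicle, 18.7, 24.4 and 9.77 with CPC, 7.10, 36.9 and 53.3 with AEBDAC, and 47.8, 31.1 and 79.1 with MTOAC. The groups overlapped vehicle in each case, and the difference with MTOAC was 1.47 ± 0.79 log2 (95% interval -0.27 to 3.22, adjusted p = 0.284, limma). Its residual SD of 1.15 log2 was above that of 97.7% of tested genes, and 51.3% of its 31-base words occur in pseudogenes. Hsp90ab1 stood at 20.9, 10.7 and 7.11 TPM with vehicle, 8.40, 10.6 and 4.04 with CPC, 11.7, 10.8 and 8.84 with AEBDAC, and 5.39, 6.21 and 5.37 with MTOAC. All MTOAC libraries lay below all vehicle and AEBDAC libraries, and the difference from vehicle of -0.94 ± 0.36 log2 did not pass (adjusted p = 0.136, limma). Like Hspa8 in most libraries, both HSP90 genes stood low for transcripts that most cells hold in abundance, as did Actb, a cytoplasmic actin (31.6 to 76.2 TPM), and Eef1a1, a translation elongation factor (33.99 to 63.3). Whether the quantification lowered these values was not tested.

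The 2 J-domain genes behaved differently in these libraries. Dnaja1, a co-chaperone of HSP70, lies on the plus strand of chromosome 4 at 40722150 to 40737149. Its mean in vehicle, 272.6 ± 20.7 TPM (SD, n = 3), was the highest of the members as listed. Hspa8, whose listed level is uncertain, stood higher in vehicle library 1 (686 TPM) and MTOAC library 3 (299 TPM). Dnaja1 stood at 290, 250 and 278 TPM in vehicle libraries 1, 2 and 3, and at 188, 210 and 189 with CPC. With AEBDAC it stood at 183, 197 and 193 TPM, and with MTOAC at 176, 184 and 171. Every treated library lay below every vehicle library. The differences were -0.47 ± 0.09 log2 with CPC (adjusted p = 0.108, limma), -0.51 ± 0.09 with AEBDAC (adjusted p = 0.0380) and -0.62 ± 0.09 with MTOAC (adjusted p = 0.00823), which makes Dnaja1 the only member that fell, with AEBDAC and with MTOAC. Set against the median tested gene of each comparison they were -0.31, -0.35 and -0.40.

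With CPC, where libraries of the same number deviated together (correlations across genes of 0.34, 0.31 and 0.23), the fit with the replicate number as a block called Dnaja1 too, at the same -0.47 log2 (adjusted p = 0.0454, limma). With the block and quantile normalization together it was -0.39 and did not pass (adjusted p = 0.0667). The fall with CPC was thus called in 1 of 16 other settings, and in none of the 6 fits without 1 library. The fall with MTOAC was called in 15 of 16 other settings and lost where only the MTOAC and vehicle libraries were fitted (adjusted p = 0.0986). The fall with AEBDAC was called in 7 of 16 settings and in none of the 6 fits without 1 library. Dnaja1 was among the steadiest genes measured, with a residual SD of 0.081 log2, below which lay 0.941% of tested genes. It overlaps the protein-coding gene Smu1 and the noncoding Gm6297, both on the opposite strand, and the microRNA gene Mir207. Since no source says that strand was marked, reads from the overlaps cannot be told apart. Other genes hold 22.6% of the 31-base words of the Dnaja1 transcripts, and annotated pseudogenes hold 12.7%. What part this has in the values was not tested.

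Dnajb1, the stress-inducible J-domain partner of HSP70, stood at 24.4, 24.7 and 24.1 TPM with vehicle and 18.1, 24.7 and 20.3 with CPC. With AEBDAC it stood at 19.7, 26.2 and 22.3 TPM, and with MTOAC at 21.7, 26.7 and 20.1. All groups overlapped vehicle, and the differences were -0.22, -0.11 and -0.10 log2, each with a standard error of 0.16 (adjusted p = 0.574, 0.758 and 0.749, limma). The 95% interval with MTOAC, -0.45 to 0.25 log2, does not reach the size of the Hspa1 change.

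Bag3 pairs HSP70 with small heat shock proteins and with autophagy. It stood at 1.04, 0.54 and 0.051 TPM in vehicle libraries 1, 2 and 3, at 1.06, 0.17 and 0 with CPC, at 1.78, 0.27 and 0.028 with AEBDAC, and at 1.43, 0.12 and 0 with MTOAC. Bag3 passed the filter on low values only through the 4 libraries numbered 1, and in each group its level was highest in library 1 and lowest in library 3. Differences from vehicle were -0.15, 0.04 and -0.09 log2, with standard errors of 0.49 (adjusted p = 0.924, 0.974 and 0.932, limma).

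Hspb1, which encodes the small heat shock protein HSP25 of the mouse, stood at 2.92, 1.40 and 1.76 TPM with vehicle and 2.36, 2.74 and 1.71 with CPC. With AEBDAC it stood at 4.50, 2.42 and 0.51 TPM, and with MTOAC at 9.57, 3.69 and 3.48. All MTOAC libraries lay above all vehicle libraries, from 2.03 ± 0.80 to 5.58 ± 3.45 TPM in the means (SD, n = 3), and library 1 gave the highest value in both groups. The difference of 1.03 ± 0.46 log2 (95% interval 0.02 to 2.05) did not pass (adjusted p = 0.197, limma), though 1 of 15 other settings, the replicate block with quantile normalization, called it (adjusted p = 0.04999). Pseudogenes hold 52.3% of the 31-base words of Hspb1, chiefly Hsp25-ps1 and Gm9817.

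**Figure D2:**
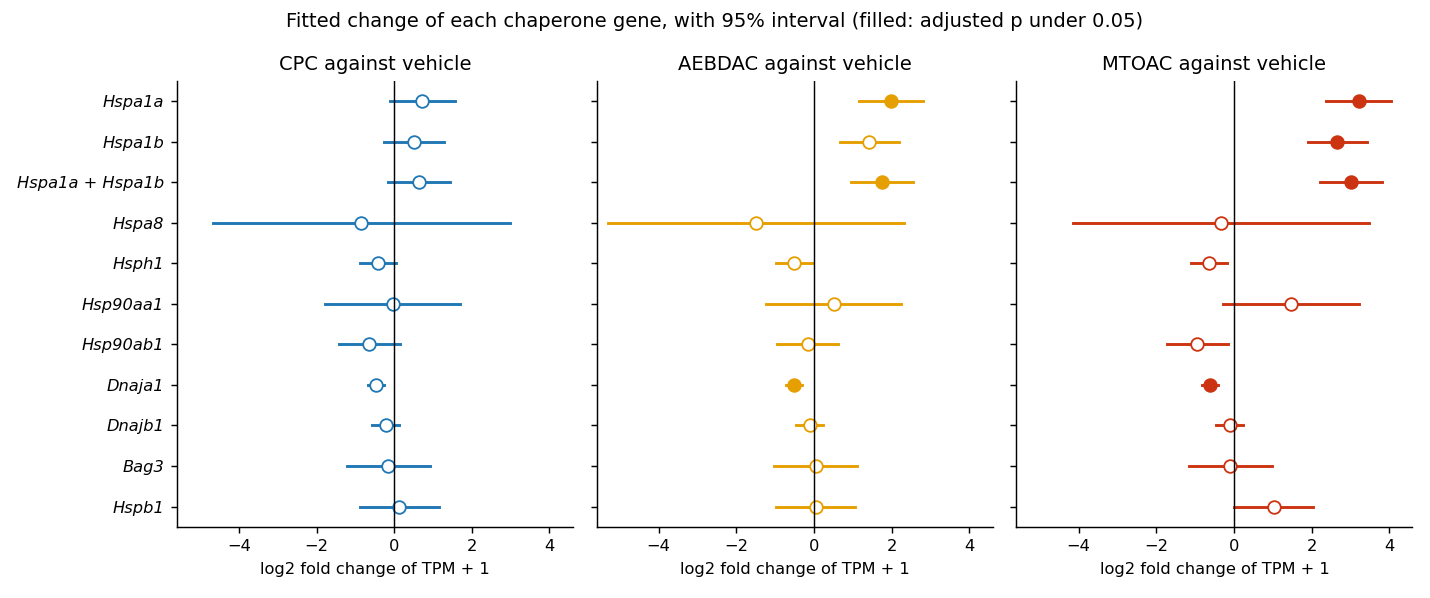
Fitted log2 fold change of TPM + 1 of each gene and of the summed pair with CPC, AEBDAC and MTOAC against vehicle, with 95% intervals, filled where the adjusted p was under 0.05. The sum moved from 0.64 with CPC to 1.76 with AEBDAC and 3.02 with MTOAC, Dnaja1 lay between -0.47 and -0.62 with narrow intervals, and the interval of Hspa8 spanned 0 in each panel.

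Counted over the 10 genes, 0 were called with CPC (0.0666% of all tested genes were called), and 1 had an unadjusted p under 0.05, as did 13.6% of all tested genes. With AEBDAC 1 rose and 1 fell, against 0.391% and 0.883% of all tested genes, and 4 had an unadjusted p under 0.05, against 19.2%. With MTOAC 2 rose and 1 fell, against 0.791% and 5.75%, and 6 had an unadjusted p under 0.05, against 24.4%. The 2 that rose were Hspa1a and Hspa1b. They enter these counts, and those of overlap below, as 2 members, though they are near-identical copies whose reads are divided uncertainly. The split of all called genes moved with the scaling. With MTOAC 95 were higher and 690 lower as deposited, and 213 and 217 after quantile normalization. The counts were 47 and 106 against 96 and 86 with AEBDAC, and 4 and 4 against 12 and 4 with CPC. Libraries did not overlap with vehicle for 0 higher and 1 lower member with CPC (2.58% and 18% of all tested genes), for 2 and 2 with AEBDAC (5.65% and 19.2%) and for 3 and 3 with MTOAC (3.99% and 22.4%). The median member lay at -0.18, -0.03 and -0.10 log2 with CPC, AEBDAC and MTOAC, beside -0.17, -0.16 and -0.22 for all tested genes. Without vehicle library 1, the median of all tested genes was -0.087, -0.073 and -0.14. The 3 comparisons share the vehicle libraries.

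Between compounds, at concentrations that differed, 0 members were called in each of 3 comparisons, as were 0% of all tested genes by limma. An unadjusted p under 0.05 was found for 2 members in each, against 1.76% of tested genes for AEBDAC against CPC, 3.74% for MTOAC against CPC and 2.56% for MTOAC against AEBDAC. These were Hspa1a and Hspa1b in all 3. With the replicate block, which pairs MTOAC and AEBDAC libraries, Hsp90ab1 and Hspb1 joined them there (unadjusted p = 0.0233 and 0.0159, limma), neither of them called. The share of all tested genes under the block was not counted. The summed pair was higher with MTOAC than with CPC by 2.39 ± 0.36 log2 (95% interval 1.59 to 3.18, unadjusted p = 3.45e-05, adjusted p = 0.414, limma), with no overlap of libraries. Without CPC library 2, which held 23.6 TPM, it was 2.82 (adjusted p = 0.0290), past the threshold. MTOAC differed from AEBDAC by 1.27 ± 0.36 (0.47 to 2.06) and AEBDAC from CPC by 1.12 ± 0.36 (0.33 to 1.92), both with an adjusted p of 1. Libraries did not overlap for 4 higher and 1 lower member with MTOAC against CPC (2.26% and 6.35% of all tested genes), for 2 and 1 against AEBDAC (1.32% and 5.61%), and for 0 members with AEBDAC against CPC (6.88% in either direction). The higher members with MTOAC include Hspa1a and Hspa1b, near-identical copies counted as 2.

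A ratio within a library does not depend on how that library was scaled. The summed Hspa1 pair over Hspa8 was 0.011, 0.47 and 0.60 in vehicle libraries 1, 2 and 3, 0.060, 0.98 and 1.35 with CPC, 1.13, 2.55 and 1.23 with AEBDAC, and 1.48, 14.6 and 0.23 with MTOAC. AEBDAC alone lay above vehicle throughout, and the mean log2 ratio differed from vehicle by 1.56, 3.39 and 3.56 (two-sided exact permutation p = 0.5, 0.1 and 0.3, where 0.1 is the smallest that 3 against 3 libraries allow). Without vehicle library 1 the differences were -0.31, 1.52 and 1.68. Over Hspa8, Hspa4 and Hsph1 together, with all libraries, the differences were 1.33, 2.80 and 3.63 (exact permutation p = 0.4, 0.1 and 0.1), and every AEBDAC and MTOAC library lay above every vehicle library, while CPC overlapped vehicle. Hsph1, Dnaja1 and Dnajb1 were each tried alone as partners after the spread of Hspa8 was seen. Over Hsph1 the differences were 1.11, 2.40 and 3.83 (exact permutation p = 0.2, 0.1 and 0.1), again with CPC overlapping vehicle. Over Dnajb1 they were 0.92, 2.0 and 3.29 (exact permutation p = 0.1 each), with every treated library above every vehicle library, although the CPC and vehicle libraries of the summed pair itself overlapped. Over Dnaja1 they were 1.17, 2.40 and 3.80 (exact permutation p = 0.1 each), also with every treated library above every vehicle library. Dnaja1 itself was lower in every treated library than in every vehicle library, which raises this ratio.

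Levels were also set out by the number of the library within its group. Bag3 was highest in library 1 and lowest in library 3 of each group, and Dnajb1 was highest in library 2 of each group. These were 2 of 10 members for which 1 number was highest throughout, a share near the 13.3% of all tested genes. The summed Hspa1 pair was highest in library 2 with CPC, AEBDAC and MTOAC. The titles do not say what a number stands for.

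**Figure D3:**
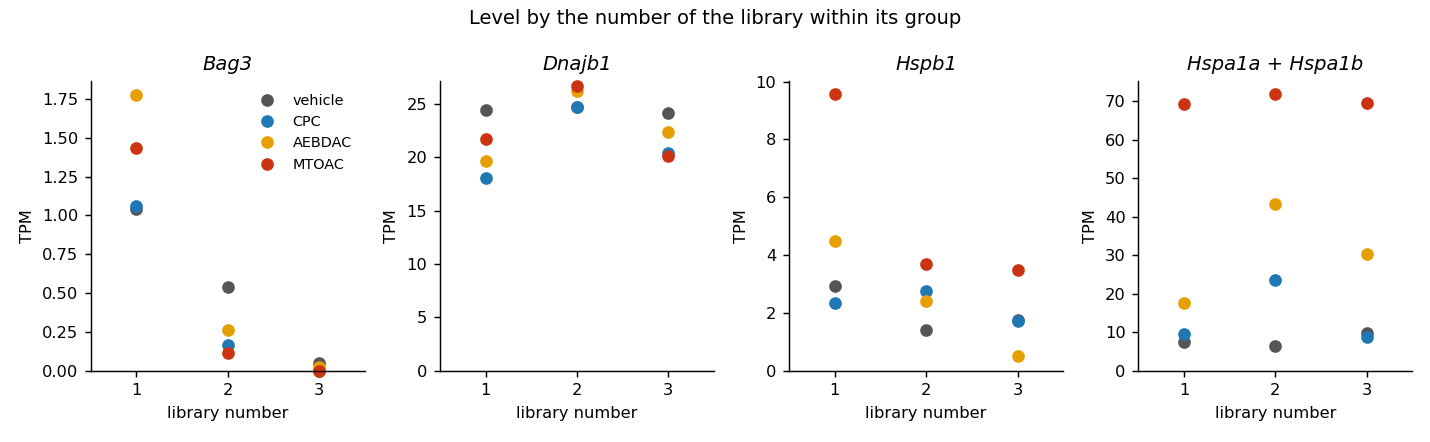
Level in TPM (linear axes from 0) of Bag3, Dnajb1, Hspb1 and Hspa1a plus Hspa1b by library number within each group, 1 point per library, coloured by group. Bag3 lay between 1.04 and 1.78 TPM in the libraries numbered 1 and between 0 and 0.051 TPM in those numbered 3, whatever the group, while the summed pair separated MTOAC at 69.4 TPM or more.

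The wider chaperone system was followed in a list of 81 genes in 11 groups by role, of which 77 were tested. None was called with CPC or AEBDAC (0.0666% and 1.27% of all tested genes), while with MTOAC 0 rose and 4 fell, against 0.791% and 5.75%. Without 1 library, 1 or 2 fell with MTOAC in each fit but that without MTOAC library 3, where 4 did. With the replicate block, which pairs the libraries of CPC and vehicle, 2 genes of the list fell with CPC, 1 of which was Hspa2 (-0.78 log2, adjusted p = 0.0479, limma). Of all 12009 tested genes, 150 fell in that comparison under the block. The list's median was -0.18, -0.20 and -0.20 log2 with CPC, AEBDAC and MTOAC, beside -0.17, -0.16 and -0.22 for all tested genes. No gene passed among the 6 further HSP70 and HSP110 genes, 12 J-domain genes, 6 exchange factors, 5 small heat shock proteins, 8 TRiC subunits, 6 prefoldin subunits, 7 mitochondrial and 5 endoplasmic reticulum chaperones and 5 regulators of heat shock transcription. Hsf1, heat shock factor 1 itself, named here outside the rule for named genes and after its values were seen, had a mean of 25.8 TPM with vehicle, 29.3 with CPC, 29.4 with AEBDAC and 26.2 with MTOAC. All CPC and AEBDAC libraries lay above all vehicle libraries, as they did for 2.58% and 5.65% of all tested genes. No difference of Hsf1 passed (adjusted p = 0.508, 0.389 and 0.929, limma). The other 4 tested regulators had negative differences with CPC and with AEBDAC.

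Of the 15 HSP90 co-chaperones, 2 fell with MTOAC. Stip1, the adaptor that joins HSP70 to HSP90, fell from 205.7 ± 3.88 to 143.5 ± 8.14 TPM (SD, n = 3; -0.52 ± 0.09 log2, adjusted p = 0.0142, limma), and each MTOAC library, at 136, 152 and 143 TPM, lay below each vehicle library, at 201, 209 and 207. Rpap3, part of a complex that works with HSP90, fell from 16.5 ± 2.86 to 10.2 ± 0.553 TPM (-0.64 ± 0.16 log2, adjusted p = 0.0440), a call kept in 7 of 16 other settings and in 1 of the 6 fits without 1 library. Ubb, a polyubiquitin gene, fell with MTOAC from 1175 ± 142 to 714.8 ± 152 TPM (-0.73 ± 0.15 log2, adjusted p = 0.0239). The call of Stip1 was kept in 14 of 16 settings and that of Ubb in 13, and of the 6 fits without 1 library in 5 and 4. Hspa2, an HSP70 best known from the testis, stood at 8.84 ± 1.72 TPM with vehicle and 4.36 ± 0.843 with MTOAC and did not pass (-0.88 ± 0.25 log2, adjusted p = 0.0581, limma). Of 16 other settings 2 called it, the replicate block alone and with quantile normalization (adjusted p = 0.00897 and 0.0310, limma). The libraries of MTOAC and vehicle did not count as paired.

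**Figure D4:**
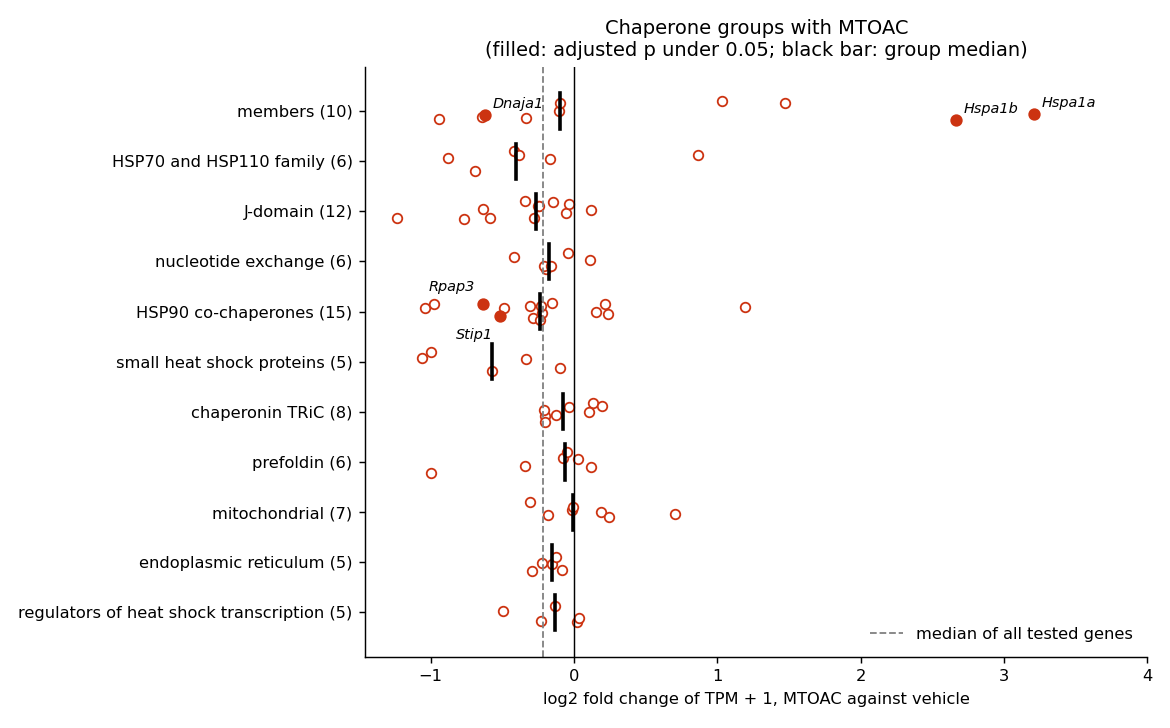
Fitted log2 fold change of TPM + 1 with MTOAC against vehicle for the members and for the tested genes of 10 other chaperone groups (ubiquitin not drawn), 1 point per gene (filled: adjusted p under 0.05), with the number of genes in brackets, the group median as a black bar and the median of all tested genes, -0.22, as a dashed line. Hspa1a and Hspa1b stood at 3.21 and 2.67, while Dnaja1 and the called genes of the other groups drawn, Stip1 and Rpap3, lay below 0.

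The 5 genes whose profile over the 12 libraries was nearest that of the summed Hspa1 pair were taken from 8542 tested genes with a named model and a group mean reaching 5 TPM. Likeness was the root mean square difference of log2(TPM + 1) after centring each gene on its own mean. It was 0.72 for Fos and 0.73 for Npas4, both transcription factors of the immediate early response, 0.74 for Actg1, a cytoplasmic actin, 0.74 for Spry2, an inhibitor of growth factor signalling, and 0.755 for Srf, serum response factor. A flat profile lies at 1.22, and Hspa1a and Hspa1b lie at 0.32 from each other. Fos stood at 3.30 ± 0.723, 7.56 ± 2.93, 13.6 ± 3.19 and 14.5 ± 3.99 TPM with vehicle, CPC, AEBDAC and MTOAC (SD, n = 3), and Srf at 29.4 ± 9.99, 73.5 ± 17.2, 104.9 ± 19.6 and 114.1 ± 36.3. The means of both differed little between AEBDAC and MTOAC, where those of the summed pair were 30.5 and 70.3 TPM. The genes and the pair share their libraries, and the values describe likeness only.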

How the data were processed

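Poly(A) RNA libraries from 12 OPC samples, 3 per treatment, were sequenced as 150 bp read pairs, per the labels' protocols, and groups and replicate numbers were taken from the treatment labels and titles. For each library the authors deposited a table of TPM values, made with Salmon on mm10 per the submitters' processing notes. Its version is not given in the sources used here, nor is the annotation. TPM are relative within a library and carry no depth, so the precision of each value rests on the 3 libraries alone.

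Values were tested as log2(TPM + 1) with limma 3.58.1 in R 4.3.3 (trend and robust moderation), in 1 fit of all 12 libraries with 4 group means, on the 12009 genes reaching 1 TPM in 3 or more libraries. P-values are two-sided and adjusted by Benjamini and Hochberg over these genes within each of 6 comparisons, with calls at an adjusted p under 0.05. Fold changes on this scale understate the change of low genes. In the fit of the sum, its row replaced those of Hspa1a and Hspa1b. The script was tested on simulated data. The members and the gene lists were chosen with earlier results of these data known.

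The genes to name were the 10 members, the genes of the wider list called against vehicle, the 2 of that list with the smallest p in each comparison with vehicle, and the 5 nearest profiles. A gene that this rule names is not reported here. Coordinates and 31-base words come from GENCODE M21 on GRCm38, where 34858 of the symbols were found, and promoters from RefSeq on GRCm38.p6. Coding sequences were aligned with Biopython 1.88.

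Replicate numbers counted as pairing libraries where libraries with the same number departed from their group means in a correlated way across genes, above 0.1 for all 3 numbers. This held for CPC against vehicle, AEBDAC against CPC (0.28, 0.42 and 0.23) and MTOAC against AEBDAC (0.33, 0.36 and 0.30). Alternatives were other pseudocounts (0.5 and 0.1), no filter or a filter of 5 TPM, quantile normalization, rescaling to nuclear genes, fits of 2 groups only, neither trend nor robust moderation, the replicate block alone or with quantile normalization, and leaving out each library in turn. No 2 libraries were identical, and those of a group correlated at 0.915 to 0.964 across genes.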

Additional observations from a re-analysis of the deposited data

How the results depend on the processing

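Of 1044 refits of single members and of the Hspa1 sum, 956 kept direction and side of the threshold, 26 lost a call, 7 gained one and 55 changed sign, in 0 of which either value was called. The counts of called genes moved most. For CPC, AEBDAC and MTOAC against vehicle they were 8, 153 and 785. They were 184, 1072 and 1904 with the replicate block, 115, 907 and 1194 with the replicate block and quantile normalization, and 0, 3 and 17 with 2 groups only. With CPC, quantile normalization gave 16, and a fit with neither trend nor robust moderation (plain moderation) gave 1. With AEBDAC, no filter gave 38 and plain moderation 75. With MTOAC, no filter gave 404 and quantile normalization 430. Leaving out 1 library gave 1 to 5, 9 to 104 and 149 to 573. Between compounds the counts of 0 became 1 for AEBDAC against CPC with no filter and with 2 groups only, 1 for MTOAC against CPC with no filter and 0 to 1 without 1 library, and 1 for MTOAC against AEBDAC with 2 groups only.

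The members called with CPC were 1 with the replicate block, which pairs the libraries there; it changed no other member's call in the 3 paired comparisons. In the unpaired comparisons the block called Hspa1b with AEBDAC (adjusted p = 0.0228, limma) beside the same change of 1.43. Of the 77 tested genes of the wider list, 4 fell with AEBDAC under the block, as did 847 of all 12009. Among the 4 were Hspa2 (adjusted p = 0.0146, limma) and Stip1 (adjusted p = 0.0350). With quantile normalization added, 1 rose and 3 fell, beside 487 and 420 of all tested genes. Those that fell included Hspa2 and Ubb (adjusted p = 0.0246 and 0.0464, limma). With MTOAC, 9 of the list fell under the block, beside 1659 of all tested genes, and 0 with 2 groups only, beside 10. The members called with AEBDAC were 0 with no filter, with 2 groups only and with plain moderation, and 0 to 2 without 1 library. With MTOAC against CPC they were 0 to 1 without 1 library, and over the 4 groups 1 with no filter and 0 to 2 without 1 library. The Hspa1 sum with AEBDAC lost its call at 1.76 log2 with no filter, 2 groups only and plain moderation, and ranged from 1.47 to 2.09 without 1 library. With MTOAC against CPC it ranged from 2.14 to 2.82.

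Uncalled differences changed sign as follows, in log2. Quantile normalization, with and without the block, gave 0.16 for Hsp90aa1 with CPC, 0.022 for Hsp90ab1 and 0.061 for Dnajb1 with AEBDAC, and 0.12 for Dnajb1 and 0.085 for Bag3 with MTOAC. Rescaling to nuclear genes gave 0.012 for Hsp90aa1 with CPC. A pseudocount of 0.1 gave -0.11 for Bag3 and -0.080 for Hspb1 with AEBDAC. Without 1 library, Hspa8 ranged from -2.03 to 0.97 with CPC, -2.46 to 0.32 with AEBDAC, -1.72 to 1.48 with MTOAC, -1.68 to 0.54 for AEBDAC against CPC, -0.88 to 1.95 for MTOAC against CPC and -0.23 to 2.60 for MTOAC against AEBDAC. Bag3 ranged from -0.46 to 0.076, -0.39 to 0.33, -0.50 to 0.15, -0.23 to 0.51, -0.34 to 0.37 and -0.54 to 0.29 in the same order. Hspb1 ranged from -0.020 to 0.33 with CPC, -0.38 to 0.55 with AEBDAC and -0.51 to 0.42 for AEBDAC against CPC. Hsp90aa1 ranged from -0.90 to 0.51, -0.36 to 1.33 and -0.00044 to 1.37 in these 3 comparisons. Hsp90ab1 ranged from -0.49 to 0.23 with AEBDAC, Dnaja1 from -0.064 to 0.014 for AEBDAC against CPC, and Dnajb1 from -0.11 to 0.11 for MTOAC against AEBDAC. The causes were not tested. Bag3 and Hspb1 have no value under the filter of 5 TPM. TPM give no depth, so the limit that depth sets on low genes such as Bag3 is unknown.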
